A study of Homo sapiens with 6 samples.

Results

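The ZBTB family is a group of transcription factors that join a BTB domain at one end of the protein to zinc fingers at the other. Its members were taken by name, as every protein-coding gene whose GENCODE 29 symbol starts with ZBTB and a digit. This gave 42 genes of the 60554 gene identifiers counted, and all 42 had a row in the count tables. One of them, ZBTB8OS, carries the name of a neighbouring gene only: it encodes archease, a cofactor of tRNA ligation, and its coding sequence held 0 zinc-finger patterns. The RNA came from Daoy cells, an established line from a human medulloblastoma. The ZFmut cells received lentivirus for ZBTB7B with the substitution R363L in the zinc-finger domain, and the WT cells received lentivirus for the wild-type protein, with 3 libraries in each group. In both groups the multiplicity of infection was 15 and the exposure 72 hr, within 4 days of culture in medium with 10% serum. Both groups thus carry a ZBTB7B transgene on top of the cell line's own gene, and each difference below is between cells with the mutant and cells with the wild-type transgene. The level of ZBTB7B transcripts also differed between the groups, as given below. For every other gene, the substitution and that difference in level therefore cannot be told apart. No library without the transgene was analysed here.

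BTB domains pair with one another and dock corepressors or the ubiquitin ligase scaffold CUL3, while the zinc fingers read DNA. Most members are known as repressors, and several set lineage choices in blood, where ZBTB7B directs T cells to the helper fate in mice. Others bind methylated DNA, telomeres or cell cycle genes, and a few are known for their part in brain development.

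The substituted residue lies in the first zinc finger, so the coding sequence of that finger is shown for ZBTB7B and its closest relatives, with the codon at the substituted position in capitals. The sequences are the GRCh38 reference read through GENCODE 29 transcripts, 5′ to 3′ on the coding strand. They cover chr1:155015702-155015764 (+) for ZBTB7B, chr19:4054021-4054083 (-) for ZBTB7A and chr18:48039950-48040012 (-) for ZBTB7C.
ZBTB7B: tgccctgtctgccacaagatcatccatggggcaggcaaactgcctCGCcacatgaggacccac
ZBTB7A: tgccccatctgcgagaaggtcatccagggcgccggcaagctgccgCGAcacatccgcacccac
ZBTB7C: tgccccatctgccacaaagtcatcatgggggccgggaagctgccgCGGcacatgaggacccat
Residue 363 matched the label in the isoform of 539 residues, where its codon is chr1:155015747-155015749, and did not in the isoform of 573 residues. It is residue 16 of the 21 in the finger pattern, and all 3 genes encode the same amino acid there. Over this finger, ZBTB7A shared 49 of 63 bases and 16 of 21 residues with ZBTB7B, and ZBTB7C shared 50 bases and 18 residues. A scan of the translated transcripts for a finger pattern (a pair of cysteines 2 to 4 residues apart, 12 residues, a pair of histidines 3 to 5 residues apart) found 3 patterns in each of these proteins. Across the family the number of patterns reached 14 in ZBTB41, 13 in ZBTB17 and ZBTB40, and 12 in ZBTB11.

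The 6 libraries held 22236214 to 102730428 gene reads, a 4.62-fold range, and no pair agreed within sampling noise. Levels are in CPM, each gene's share of the library's gene reads scaled by TMM, and library values are given in the order of replicates 1, 2 and 3. Titles number the replicates as separate samples, but no label says that each is a culture of its own. The p-values therefore rest on the spread between samples that may differ only technically. Differences were tested with edgeR over 18683 genes, with Benjamini-Hochberg adjustment at a threshold of 0.05, and a member "rose" or "fell" only where it passed. Log2 differences are ZFmut minus WT, and their median over all tested genes was -0.00. The value after ± on a log2 difference is an approximate standard error. It is the size of the difference divided by the square root of the F statistic of the test. Markers of hedgehog-type medulloblastoma summed to 255 to 273 CPM in ZFmut and 240.2 to 263 CPM in WT libraries, but the members differed: SFRP1 rose by 0.21, while GLI1 fell, at -0.34, and PTCH1 fell, at -0.14 (edgeR adjusted p = 0.00613, 0.00734 and 0.0472). ATOH1, a defining gene of the granule lineage, averaged 0.0548 CPM in ZFmut and 0.0115 CPM in WT. Granule neuron markers (NEUROD1, RBFOX3, PAX6 and BARHL1) summed to 20.03 to 20.8 CPM in ZFmut and 17.9 to 20.4 CPM in WT libraries. Most of this was PAX6, which averaged 18.9 CPM in ZFmut and 17.6 CPM in WT and missed the threshold (0.10, edgeR adjusted p = 0.301). Genes on the other strand overlap 26.1% of the exonic sequence of PAX6, so its value is less certain. Markers of other cell types summed to low levels: T-cell markers to 1.502 to 2.23 CPM in ZFmut and 1.01 to 1.37 CPM in WT, endothelial markers to 1.34 to 1.46 CPM in ZFmut and 0.158 to 0.449 CPM in WT, and epithelial markers to 0.446 to 0.471 CPM in ZFmut and 0.587 to 0.601 CPM in WT. Most of the endothelial sum was PECAM1, which rose by 2.10 (edgeR adjusted p = 4.09e-05). Its reads were few, with 28, 35 and 143 in ZFmut libraries against 10, 23 and 5 in WT libraries. The largest part of the T-cell sum was CD4, which also rose, as given below. No marker of these lists was at 0 in every library, and the part of these markers in the results was not tested.

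ZBTB7B was the most abundant member by a wide margin. Per kb of exonic sequence it averaged 172 CPM over all libraries, 7.46-fold above the next member, ZBTB4, at 23.1 CPM per kb. ZBTB2 followed at 16.9, ZBTB7A at 15.1 and ZBTB17 at 14.7 CPM per kb. The counts cannot separate transcripts of the ZBTB7B transgene from those of the cell's own gene. The tested members other than ZBTB7B had a median of 4.54 CPM per kb. The lowest were ZBTB7C at 0.432, ZBTB8B at 0.201 and ZBTB20 at 0.190 CPM per kb, and 47.7% of the exonic sequence of ZBTB20 also belongs to another gene on its strand. ZBTB7B made up 29.9, 30.9 and 32.2% of the family's summed CPM in ZFmut libraries, against 41.9, 40.8 and 42.8% in WT libraries. Summed over all members, the family reached 1857 ± 85.7 CPM in ZFmut and 2161 ± 53.9 CPM in WT (SD, n = 3 each). Without ZBTB7B the sums were 1281 ± 48.5 CPM in ZFmut and 1257 ± 11.5 CPM in WT, closer than the spread between the ZFmut libraries.

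**Figure D1:**
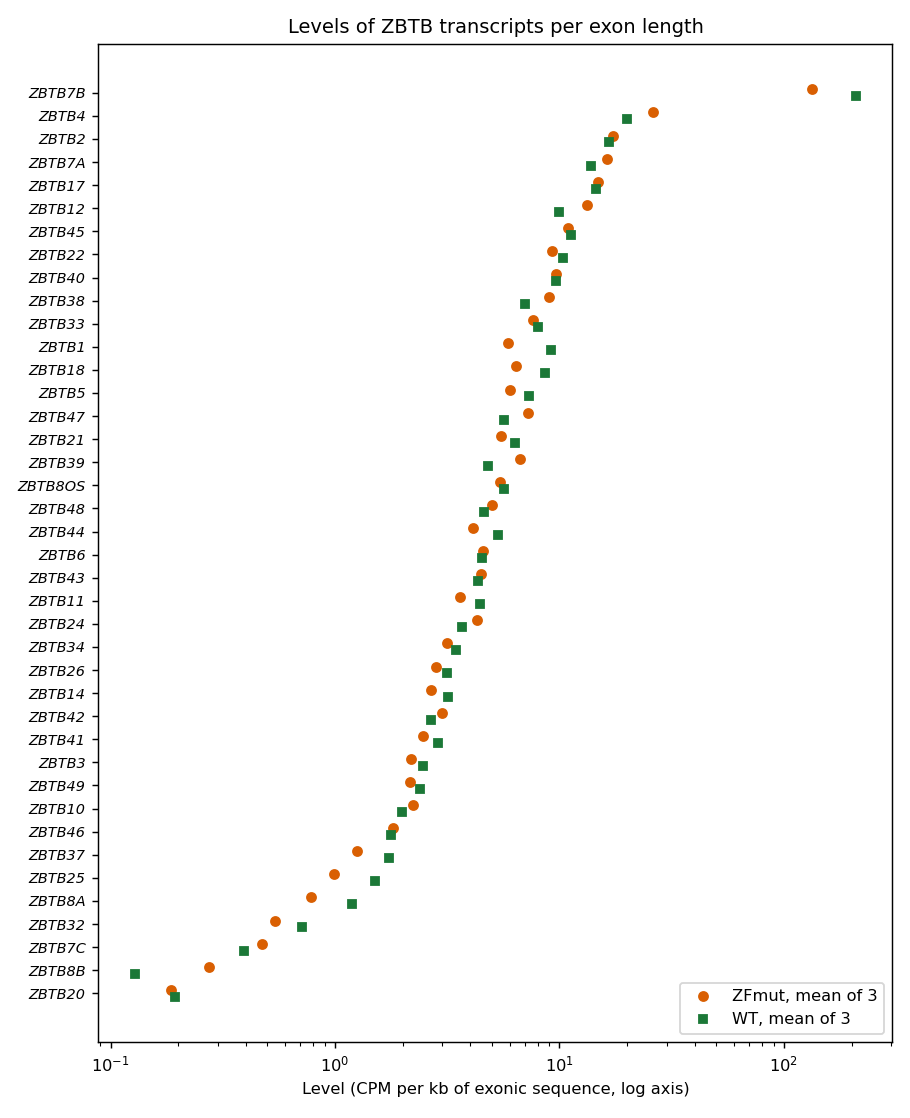
Levels of the 40 tested ZBTB members in CPM per kb of exonic sequence on a log axis, as the mean of 3 libraries for ZFmut (circles) and WT (squares), ordered by the mean over all libraries. ZBTB7B stands at 134 CPM per kb in ZFmut and 210.2 CPM per kb in WT, above every other member, and the remaining members extend from ZBTB4 at 23.1 down to ZBTB20 at 0.190 CPM per kb over all libraries.

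Of the 42 members, 40 passed the filter on low counts. In ZFmut 8 of the 40 rose (20%), 9 fell (22.5%) and 23 missed the threshold. The background was similar: 17.2% of all tested genes were higher in ZFmut and 18.4% lower, and among protein-coding genes 19.7% were higher and 21.1% lower. The share of ZBTB genes that moved was therefore near that of other genes, and the median over the members was -0.07. All 3 ZFmut libraries lay above all 3 WT libraries for 8 members and below them for 12, where the background was 22.8% of tested genes above and 24.4% below. In these bulk samples, fewer cells with a transcript and less RNA per cell cannot be told apart. ZBTB16, which drives innate-like T cells and had 0, 1 and 3 reads in ZFmut libraries against 0, 0 and 1 in WT libraries, was not tested. Neither was ZBTB9, with 0 reads in each ZFmut library and 1, 0 and 0 reads in WT libraries. Its exonic sequence is shared on the same strand, and reads shared by genes are outside the counts, so its level is uncertain and these reads do not show that it is silent.

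**Figure D2:**
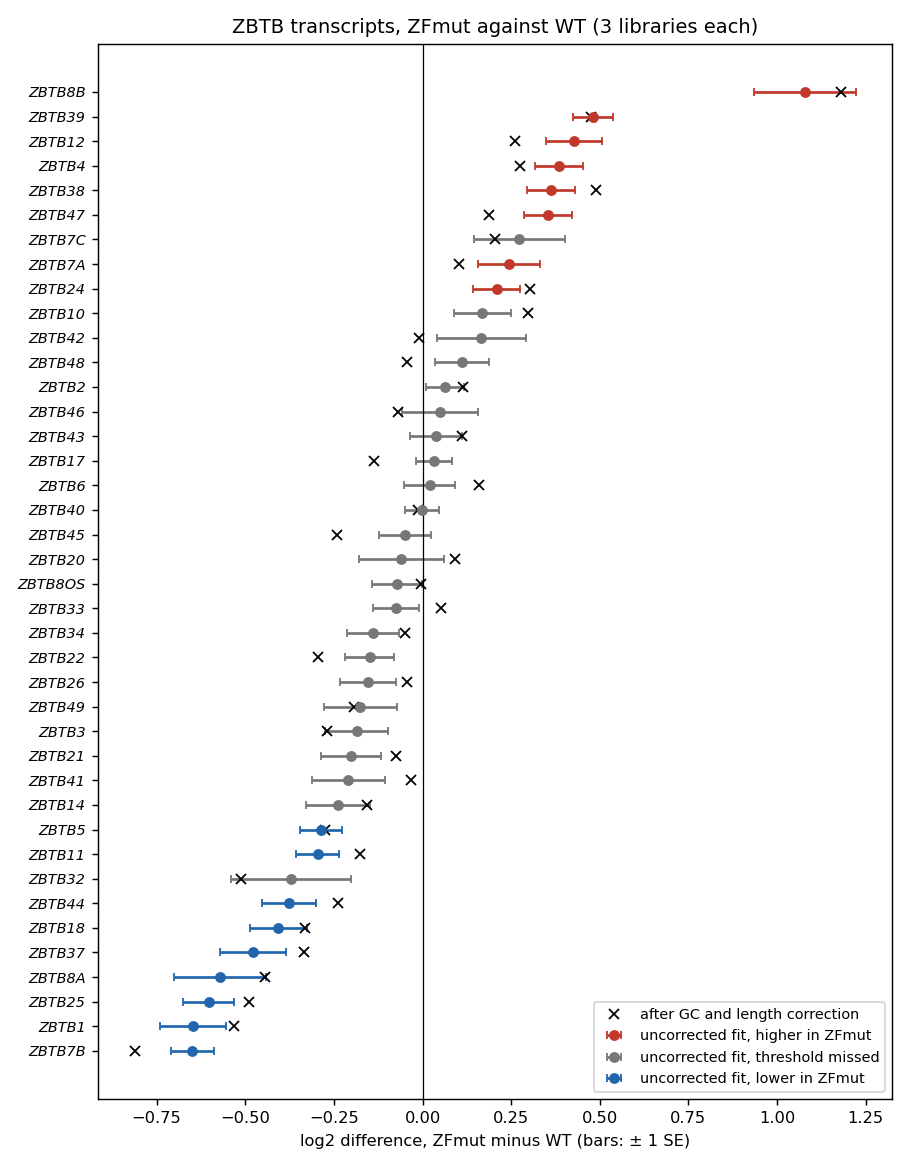
Log2 difference (ZFmut minus WT, horizontal axis) of each of the 40 tested ZBTB members, with circles and bars of 1 standard error for the uncorrected fit and crosses for the fit with GC and length correction. The differences extend from -0.65 for ZBTB7B to 1.08 for ZBTB8B, with 8 members higher in ZFmut, 9 lower and 23 that missed the threshold.

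Within the ZBTB7 group, ZBTB7B itself fell in ZFmut while its closest relatives had higher means. ZBTB7B had 555, 547 and 627 CPM in ZFmut libraries, against 899, 863 and 951 CPM in WT libraries. The groups did not overlap, the ZFmut level was 0.638 times that of WT, and the log2 difference was -0.65 ± 0.06 (edgeR adjusted p = 1.39e-06). ZBTB7A, known for silencing fetal globin genes and for its part in cancers, had 85.1, 89.9 and 106 CPM in ZFmut libraries, against 68.5, 84.4 and 85.3 CPM in WT libraries. Replicate 1 of ZFmut lay within the WT range, and the difference of 0.24 ± 0.09 passed narrowly (edgeR adjusted p = 0.0419). That call ended when replicate 1 of WT was left out (0.16, edgeR adjusted p = 0.13), when replicate 2 or 3 of ZFmut was left out (0.28 and 0.14, edgeR adjusted p = 0.0635 and 0.284), with a filter of 5 CPM in 3 libraries (edgeR adjusted p = 0.0598) and with GC and length correction (0.10, edgeR adjusted p = 0.125). ZBTB7C, a rare transcript here, had 3.48, 3.50 and 3.83 CPM in ZFmut libraries, against 3.005, 3.24 and 2.75 CPM in WT libraries. Its groups did not overlap, but the difference of 0.27 ± 0.13 missed the threshold (edgeR adjusted p = 0.114).

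Among the 6 tested members known from blood lineages, 1 rose and 2 fell, against 17.2% higher and 18.4% lower over all tested genes. ZBTB1, which mice need for T-cell development, and ZBTB25 fell to 0.639 and 0.658 times their WT levels in ZFmut. ZBTB1 (ENSG00000126804.13, chr14:64503712-64533690, + strand) had 35.8, 26.7 and 30.5 CPM in ZFmut libraries, against 54.1, 44.3 and 47.4 CPM in WT libraries. Every ZFmut library lay below every WT library, a log2 difference of -0.65 ± 0.09 (edgeR adjusted p = 9.42e-05). For ZBTB25 (ENSG00000089775.11, chr14:64449106-64505213, - strand) the values were 11.7, 11.8 and 12.7 CPM in ZFmut libraries and 18.7, 18.1 and 18.7 CPM in WT libraries. The groups were again separate, with little spread inside either, and the difference was -0.60 ± 0.07 (edgeR adjusted p = 1.6e-05). In RefSeq on GRCh38.p14, a start of ZBTB1 (64503887) and a start of ZBTB25 (64503838) lie 49 bases apart on opposite strands and point away from each other. Of the 4 listed starts of ZBTB25, those at 64503964 and 64505213 lie inside ZBTB1 as measured from its RefSeq start at 64503887. The span given above for ZBTB1 is that of GENCODE and begins at 64503712, so the ZBTB25 start at 64503838 lies inside that span too. Transcripts from any of these ZBTB25 starts thus overlap the GENCODE span of ZBTB1. The promoter window of ZBTB1, chr14:64503637-64503936 (+), shows the stretch between the close pair of starts, with the 50 bases from the ZBTB25 start to the ZBTB1 start in capitals.
ZBTB1: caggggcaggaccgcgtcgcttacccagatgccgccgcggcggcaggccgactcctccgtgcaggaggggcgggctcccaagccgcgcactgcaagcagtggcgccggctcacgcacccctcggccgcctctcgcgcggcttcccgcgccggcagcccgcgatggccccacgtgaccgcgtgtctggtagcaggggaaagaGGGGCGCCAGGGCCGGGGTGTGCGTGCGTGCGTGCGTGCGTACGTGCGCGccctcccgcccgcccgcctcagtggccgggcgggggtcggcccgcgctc
The library kit does not keep the strand, and 11.4% of the exonic sequence of ZBTB1 and 5.60% of that of ZBTB25 overlaps genes on the other strand, so reads from those stretches cannot be told apart. ZBTB24, mutated in a form of the ICF immunodeficiency syndrome, rose slightly, with 23.5, 24.1 and 23.3 CPM in ZFmut libraries against 19.2, 20.6 and 21.3 CPM in WT libraries. The groups did not overlap, and the difference was 0.21 ± 0.07 (edgeR adjusted p = 0.0241). This call was lost when any one of 4 libraries was left out: replicate 1 of WT (0.18, edgeR adjusted p = 0.093), replicate 2 of WT (0.22, 0.0648), replicate 2 of ZFmut (0.20, 0.0567) or replicate 3 of ZFmut (0.22, 0.0626). ZBTB32, a brake on memory B-cell responses in mice, was at -0.37 ± 0.17 (edgeR adjusted p = 0.105) with 1.47, 1.38 and 1.62 CPM in ZFmut libraries against 1.76, 1.88 and 2.31 CPM in WT libraries. ZBTB17, the MYC partner MIZ1, was at 0.03 and ZBTB46, a marker of classical dendritic cells, at 0.05, and both missed the threshold.

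Of the 3 members that bind methylated DNA, 2 rose, where 17.2% of all tested genes did. ZBTB4 had 154, 150.2 and 176 CPM in ZFmut libraries, against 113, 127 and 127 CPM in WT libraries. All ZFmut values were above all WT values, and the difference was 0.38 ± 0.07 (edgeR adjusted p = 0.000455). ZBTB38 had 138, 119 and 127 CPM in ZFmut libraries, against 104, 90.5 and 105 CPM in WT libraries. It was likewise separate between the groups, at 0.36 ± 0.07 (edgeR adjusted p = 0.00078). ZBTB33, known as Kaiso, was at -0.08 ± 0.06 with 40.6 ± 2.07 CPM in ZFmut and 42.8 ± 2.82 CPM in WT (SD, n = 3 each), and the groups overlapped (edgeR adjusted p = 0.395).

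Among the 3 members known from the brain, ZBTB18 fell, where 18.4% of all tested genes did, and the others missed the threshold. ZBTB18, a repressor needed for neurons of the developing cortex, had 26.7, 22.0 and 26.7 CPM in ZFmut libraries, against 35.3, 31.0 and 34.5 CPM in WT libraries. Each ZFmut value was lower than each WT value, with a difference of -0.41 ± 0.08 (edgeR adjusted p = 0.00123). ZBTB20, which patterns the hippocampus in mice, was at -0.06 ± 0.12, and ZBTB45, reported to promote glial differentiation in mice, at -0.05 ± 0.07.

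None of the 3 members grouped for telomere and genome functions passed, where 17.2% of all tested genes were higher and 18.4% lower. ZBTB10 and ZBTB48, which bind telomeric repeats, were at 0.17 ± 0.08 (edgeR adjusted p = 0.121) and 0.11 ± 0.08 (edgeR adjusted p = 0.275). ZBTB40, from a locus linked to bone density, was at -0.00 ± 0.05, with 88.4 ± 1.83 CPM in ZFmut and 88.5 ± 2.03 CPM in WT (SD, n = 3 each).

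Of 3 members grouped here as reported regulators of the cell cycle inhibitor gene CDKN1A, ZBTB5 fell, where 18.4% of all tested genes did. Role groups did not share members, so members named elsewhere may regulate CDKN1A too, and the group is not a full list. ZBTB5, reported as a repressor of CDKN1A, had 28.4, 28.0 and 27.2 CPM in ZFmut libraries, against 34.0, 34.4 and 33.3 CPM in WT libraries. The groups did not overlap and lay apart by more than the spread inside them, and the difference was -0.29 ± 0.06 (edgeR adjusted p = 0.0017). ZBTB2, the third most abundant member per kb, had 54.1, 51.4 and 54.8 CPM in ZFmut libraries, against 52.3, 50.9 and 50.5 CPM in WT libraries. These ranges overlapped, at 0.06 ± 0.05 (edgeR adjusted p = 0.38), and ZBTB49 was at -0.18 ± 0.10 (edgeR adjusted p = 0.204). CDKN1A itself fell, with 42.9, 44.1 and 43.8 CPM in ZFmut libraries against 79.8, 78.4 and 82.4 CPM in WT libraries (-0.88 ± 0.05, edgeR adjusted p = 1.31e-08).

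The remaining members have less settled roles. Of the 19 tested, 4 rose and 4 fell (21.1% each), against 17.2% higher and 18.4% lower over all tested genes. The largest rise among the tested members was that of ZBTB8B (ENSG00000273274.1, chr1:32465069-32496686, + strand), with 3.79, 3.21 and 3.54 CPM in ZFmut libraries against 1.49, 1.79 and 1.65 CPM in WT libraries. It was 2.11-fold higher in ZFmut with no overlap, a difference of 1.08 ± 0.14 (edgeR adjusted p = 4.74e-05). These levels rest on 85, 77 and 361 reads in ZFmut libraries and 43, 102 and 52 reads in WT libraries. Its neighbour ZBTB8A (ENSG00000160062.14, chr1:32539427-32605939, + strand) moved the other way, with 5.93, 4.63 and 6.04 CPM in ZFmut libraries against 8.56, 7.11 and 9.72 CPM in WT libraries. All ZFmut values were below all WT values, at -0.57 ± 0.13 (edgeR adjusted p = 0.00333). A read-through gene overlaps both: ZBTB8A shares 25.2% and ZBTB8B 11.5% of its exonic sequence with other genes on the same strand, so their values are less certain. ZBTB8OS, the third gene there, was at -0.07 ± 0.07 (edgeR adjusted p = 0.467).

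ZBTB39 rose with little spread inside either group, at 41.9, 40.9 and 41.0 CPM in ZFmut libraries against 29.5, 29.9 and 29.2 CPM in WT libraries. The groups were far apart, at 0.48 ± 0.06 (edgeR adjusted p = 1.48e-05). ZBTB12 had 21.9, 26.5 and 26.4 CPM in ZFmut libraries, against 18.6, 19.0 and 18.3 CPM in WT libraries. It rose by 0.43 ± 0.08 (edgeR adjusted p = 0.00068), and replicate 1 of ZFmut lay nearest to the WT values. ZBTB47 had 25.7, 27.4 and 28.96 CPM in ZFmut libraries, against 20.8, 22.0 and 21.7 CPM in WT libraries. The ranges were separate, at 0.35 ± 0.07 (edgeR adjusted p = 0.000937).

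ZBTB37, ZBTB44 and ZBTB11 fell. ZBTB37 had 28.6, 20.4 and 24.4 CPM in ZFmut libraries, against 32.5, 34.2 and 35.3 CPM in WT libraries. The ZFmut libraries spread more widely than the WT libraries and stayed below them, at -0.48 ± 0.09 (edgeR adjusted p = 0.00103). ZBTB44 showed the same order, with 52.0, 40.2 and 44.3 CPM in ZFmut libraries against 60.6, 58.3 and 57.8 CPM in WT libraries (-0.38 ± 0.08, edgeR adjusted p = 0.00144). ZBTB11, mutated in an inherited intellectual disability, had 27.7, 26.4 and 26.0 CPM in ZFmut libraries, against 33.1, 32.0 and 33.0 CPM in WT libraries. It was separate between groups at -0.29 ± 0.06 (edgeR adjusted p = 0.0016), and 12.0% of its exonic sequence overlaps genes on the other strand. The antisense transcript there, ZBTB11-AS1, was at 0.44 ± 0.22 (edgeR adjusted p = 0.135).

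The other 10 members that missed the threshold, besides ZBTB8OS, lay between -0.24 and 0.17. ZBTB14 was at -0.24 ± 0.09 (edgeR adjusted p = 0.056) and ZBTB3 at -0.19 ± 0.09 (edgeR adjusted p = 0.121), and in both the groups did not overlap. Below 0 with overlapping groups were ZBTB41 at -0.21, ZBTB21 at -0.20, ZBTB26 and ZBTB22 at -0.15 and ZBTB34 at -0.14. Above 0 with overlapping groups were ZBTB6 at 0.02, ZBTB43 at 0.04 and ZBTB42 at 0.17.

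**Figure D3:**
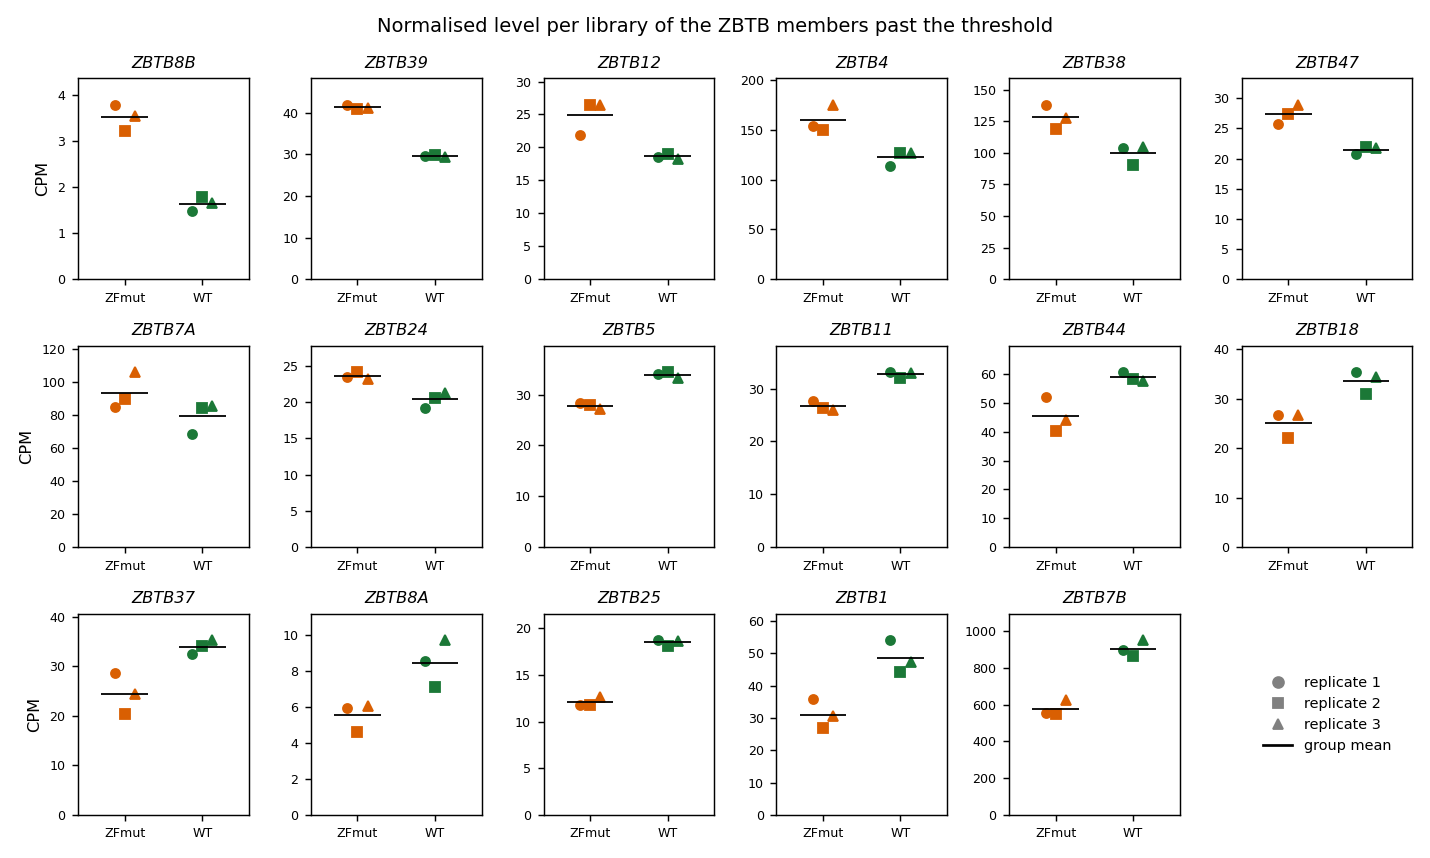
Normalised level (CPM, each axis from 0) in every library of the 17 ZBTB members past the threshold, with ZFmut left of WT, 1 symbol per replicate and a line at the group mean. The groups are separate in every panel except ZBTB7A, where replicate 1 of ZFmut at 85.1 CPM lies below replicate 3 of WT at 85.3 CPM.

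The direction of the members went along with the GC content of their exons. The 8 members higher in ZFmut had a median GC content of 53.6%, the 9 lower members 40.7% and those that missed the threshold 44.8%. The order was the same over all tested genes with a GC value, at 55.8%, 44.9% and 48.0%, so it is not particular to the family. Of the 22 members under 45% GC, 3 rose (ZBTB24, ZBTB38 and ZBTB8B) and 7 fell. Of the 18 members at or above 45% GC, 5 rose and 2 fell (ZBTB7B and ZBTB5). The shares of all tested genes on either side of 45% were not counted. Across the 40 members, which share the same 6 libraries, the log2 difference and GC content had a Spearman rho of 0.38 and a Pearson r of 0.25, and across 18547 tested genes the rho was 0.31. After each library's trend on GC content and exon length was removed, the rho of the members was -0.00.

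With that correction 10 members rose and 14 fell, where the background was 20.6% of tested genes higher and 21% lower. Of the 17 members called without it, ZBTB7A lost its call and all the others kept theirs in the same direction. ZBTB7B fell further, at -0.81 (edgeR adjusted p = 6.27e-10), and ZBTB38 rose further, at 0.49 (edgeR adjusted p = 3.55e-08). So did ZBTB24, at 0.30 (edgeR adjusted p = 0.00063), and ZBTB8B, at 1.18 (edgeR adjusted p = 1.75e-06). The other called members moved towards 0. The difference shrank by over 1.5 times, still past the threshold, for ZBTB12 at 0.26, ZBTB47 at 0.19, ZBTB44 at -0.24 and ZBTB11 at -0.18. It shrank less for ZBTB37 at -0.33, ZBTB4 at 0.27, ZBTB8A at -0.44, ZBTB1 at -0.53, ZBTB25 at -0.49 and ZBTB18 at -0.33. The added calls were 3 rises, ZBTB10 at 0.30, ZBTB6 at 0.16 and ZBTB2 at 0.11, and 5 falls, ZBTB32 at -0.51, ZBTB22 at -0.30, ZBTB3 at -0.27, ZBTB45 at -0.24 and ZBTB17 at -0.14. Of these, ZBTB17 changed its sign between the fits. Whether GC content acts on the measurement or goes with the genes that moved was not tested.

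**Figure D4:**
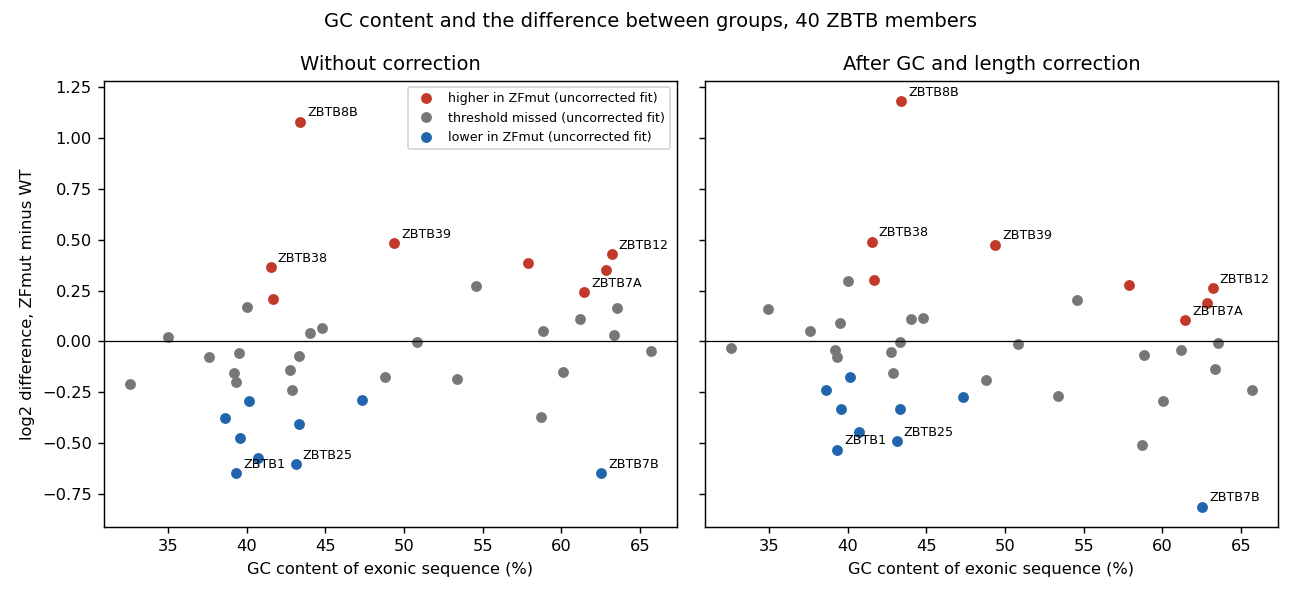
Log2 difference (ZFmut minus WT, vertical axis) against GC content of the exonic sequence in percent for the 40 tested ZBTB members, without correction (left) and after GC and length correction (right), coloured by the call of the uncorrected fit. The Spearman rho is 0.38 on the left and -0.00 on the right, while ZBTB8B stays highest and ZBTB7B lowest in both panels.

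Promoters of the family were searched for the letters GACCACC, the core of the site that ZBTB7 proteins bind in vitro, on either strand. The search used RefSeq windows of 250 bases before to 50 bases after a gene's start on GRCh38.p14, which were matched by symbol for 36 of the 42 members, with 70 windows. ZBTB6, ZBTB10, ZBTB16, ZBTB17, ZBTB40 and ZBTB41 had no entry. The letters occurred in 3 of the 70 windows (4.29%), against 3.04% of 16932 windows of tested protein-coding genes and 2.98% of all 35116 windows. The windows were those of ZBTB8B and ZBTB38, which rose, and ZBTB33, which missed the threshold. ZBTB38 had several windows, and the match lay in only 1 of them, after the listed start. The members that rose had 19 windows in all. The 9 members that fell had 16 windows, with 0 matches. So few windows cannot tie the letters to a direction. The window of ZBTB8B, chr1:32464822-32465121 (+), is shown because that gene rose most, with the match in capitals.
ZBTB8B: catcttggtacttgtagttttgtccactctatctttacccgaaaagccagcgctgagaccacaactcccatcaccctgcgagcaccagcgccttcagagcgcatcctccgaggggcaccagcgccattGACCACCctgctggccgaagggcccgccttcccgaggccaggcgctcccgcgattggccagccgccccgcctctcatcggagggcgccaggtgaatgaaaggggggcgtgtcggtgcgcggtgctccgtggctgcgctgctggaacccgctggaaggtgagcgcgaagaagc
The match starts 122 bases before the gene's start. It is a match of letters in a window, and binding was not measured.

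The number of zinc-finger patterns overlapped widely between members that moved in opposite directions. Members that rose had a median of 6 patterns (2 to 9), members that fell 3 (1 to 12) and those that missed the threshold 4 (0 to 14).

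BTB zinc-finger genes outside the ZBTB names were counted in the same fit. Of the 8, 7 were tested, 2 rose (28.6%) and 1 fell (14.3%), with a median of 0.06, against 17.2% and 18.4% of all tested genes. PATZ1, a BTB protein with AT-hooks, had 81.1, 88.1 and 94.4 CPM in ZFmut libraries, against 54.7, 60.7 and 67.7 CPM in WT libraries. The groups were apart, at 0.53 ± 0.07 (edgeR adjusted p = 6.88e-05). GZF1 rose by 0.20 ± 0.07 (edgeR adjusted p = 0.0444), and the tumour suppressor HIC1 fell, at -0.33 ± 0.09 (edgeR adjusted p = 0.0136). Genes on the other strand overlap 29.8% of the exonic sequence of HIC1, so its value is less certain. BCL6, HIC2, ZNF131 and MYNN missed the threshold, and BCL6B was not tested. With any one library left out, 1 or 2 of these genes were higher and 0 or 1 lower. In the same fits 11.9 to 20.4% of all tested genes were higher and 13.2 to 19.6% lower.

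Genes for corepressors, the acetyltransferases EP300 and CREBBP and ubiquitin ligase parts, known as partners of BTB proteins, moved in both directions. Of 31, all tested, 11 rose (35.5%) and 7 fell (22.6%), with a median of -0.02, against 17.2% and 18.4% of all tested genes and 19.7% and 21.1% of protein-coding genes. Among those that rose, the histone deacetylase gene HDAC7 was at 0.40 ± 0.06 (edgeR adjusted p = 0.00025), the remodeller CHD4 at 0.22 ± 0.04 (edgeR adjusted p = 0.00168) and its complex partner MTA3 at 0.27 ± 0.06 (edgeR adjusted p = 0.00408). Among those that fell, the corepressor CTBP2 was at -0.47 ± 0.05 (edgeR adjusted p = 8.61e-06), the BCL6 corepressor BCOR at -0.33 ± 0.05 (edgeR adjusted p = 0.000146) and RCOR1 at -0.33 ± 0.05 (edgeR adjusted p = 0.000225). CHD4 shares 46.9% of its exonic sequence with other genes on its strand. Genes on the other strand overlap 34.7% of that of CTBP2 and 11.2% of that of HDAC7, so these 3 values are less certain. CUL3, the ligase scaffold, missed the threshold at -0.08 ± 0.05 (edgeR adjusted p = 0.252). The count that rose depended on single libraries: it was 7 without replicate 1 of WT, 6 without replicate 3 of WT, and 5 without replicate 2 or without replicate 3 of ZFmut. In the same fits the share of all tested genes that rose was also lower, at 13.9% and 13.01% without those WT libraries and 14.2% and 11.9% without those ZFmut libraries.

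Reported target genes of ZBTB factors numbered 14, of which 8 were tested. Of these 3 rose (37.5%) and 2 fell (25%), with a median of 0.06, against 17.2% and 18.4% of all tested genes. RUNX3, the T-cell factor opposed by ZBTB7B in mice, rose by 0.38 ± 0.07 (edgeR adjusted p = 0.00071). MYC rose by 0.26 ± 0.07 (edgeR adjusted p = 0.00755). CD4, the helper T-cell coreceptor, was at 0.77 ± 0.25 (edgeR adjusted p = 0.0254), from 1.43, 1.13 and 1.41 CPM in ZFmut libraries against 0.656, 1.06 and 0.506 CPM in WT libraries. Its levels rest on 32, 27 and 144 reads in ZFmut libraries and 19, 60 and 16 reads in WT libraries. CDKN1A fell as given above. The matrix metalloproteinase gene MMP7 also fell, at -2.23 ± 0.37 (edgeR adjusted p = 0.000311), on 5, 1 and 14 reads in ZFmut libraries against 20, 34 and 21 reads in WT libraries.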

How the data were processed

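RNA of 6 Daoy libraries was measured by sequencing with a kit that keeps no strand, per the labels' protocols. The authors deposited whole-number counts per gene with no normalisation. The submitters' processing notes name GRCh38 and, in no stated order, TopHat2 2.0.9, cutadapt, DESeq2 and HTSeq; which annotation and strand setting HTSeq had is not given in the sources used here. The 5 summary lines at the end of each file name no gene and entered neither the library sizes nor the tests; of each total they held 7.71 to 8.08% ambiguous, 16.1 to 19.4% multiply aligned and 5.04 to 6.56% unassigned reads. Reads that fit paralogs or overlapping genes equally are therefore outside the gene counts.

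Groups came from the sample titles. Symbols, positions, exon length and GC content came from GENCODE 29, which held 94.1% of the identifiers. The 6 libraries were compared in R 4.3.3 with edgeR 4.0.16 (TMM, filterByExpr, two-sided quasi-likelihood F test, no covariates) on all genes. The biological coefficient of variation was 6.27%. Alternatives used DESeq2 1.42.0, limma 3.58.1 (voom), other scalings and filters, thinning to 22236214 reads, a replicate block, loess offsets on GC content and exon length (span 0.5), and leaving out each library. The code was tested on simulated data. ZBTB7A, ZBTB7B, ZBTB7C, the 3 most abundant members per kb and every called member are given per library, other members by their difference or reads, and from other lists up to 3 called genes in each direction by the smallest p; ZBTB32, ZBTB9, ZBTB16, ZBTB11-AS1 and CUL3 were added after their values were seen. Members and lists were chosen with earlier results of these data known. Finger patterns were read from translated GENCODE transcripts.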

Additional observations from a re-analysis of the deposited data

How the results depend on the processing

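Of the 17 ZBTB members past the threshold, 15 stayed past it in the same direction in every alternative that gave them a value; ZBTB7A and ZBTB24 did not. Of the 23 others, 12 passed in the same direction in at least 1 alternative, and ZBTB17 passed with the opposite sign in 2. ZBTB7B ranged from -0.81 to -0.61 on the log2 scale, with an adjusted p of at most 2.84e-05 over edgeR, DESeq2 and limma. With GC and length correction 14 members were lower, and 14 with that correction and the replicate block, against 9 without; ZBTB17 reversed to -0.14 in both of these fits, and the cause was not tested. In deviations from the group mean, same-numbered ZFmut and WT libraries had weak correlations of 0.164, 0.077 and 0.0635. Still, 6 of 6 libraries correlated best with their own number. No criterion for pairing was set, so the check does not decide whether replicate numbers pair the libraries. The main fit used no pairing. The replicate block alone gave 9 members higher and 13 lower, and raised the share of all tested genes to 22.6% higher and 23.9% lower. Leaving out 1 library gave 6 to 9 members higher and 9 to 12 lower, 1 to 2 other BTB zinc-finger genes higher and 0 to 1 lower, and 5 to 12 partner genes higher. The share of all tested genes moved in the same fits, from 11.9 to 20.4% higher and from 13.2 to 19.6% lower. With a filter of 5 CPM in 3 libraries, 1 reported target was lower in place of 2. In alternatives added after the data were seen, without ZBTB8OS 8 members were higher and 9 lower, and without the 6 members with over 10% of their exonic sequence shared on either strand 7 were higher and 6 lower. Low counts limit ZBTB8B, ZBTB32, ZBTB7C, CD4, MMP7 and PECAM1, and a difference in ZBTB16 was not detectable at this depth.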

Other observations

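Rows with a ZBTB symbol that are not protein-coding were outside the family as defined. The processed pseudogene ZBTB12BP had 0.580, 0.668 and 0.766 CPM in ZFmut libraries, against 0.794, 0.686 and 1.04 CPM in WT libraries, a log2 difference of -0.22 ± 0.25 (edgeR adjusted p = 0.527).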
